A study of Homo sapiens with 8 samples.

Results

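The comparison described here set virally transduced T cell acute lymphoblastic leukaemia (T-ALL) cells against cells of the same lines that carried no vector. All 8 arrays of the series entered it, chosen by their titles: 6 transduced and 2 untransduced. CCRF-CEM and HPB-ALL, 2 established human T-ALL lines, each gave 4 arrays, named after the short hairpin RNA (shRNA) in the cells: scramble, shTOX-1, shTOX-2, and none in the untransduced array. Both hairpins target TOX, a nuclear DNA-binding protein needed for T cell development. Per the labels, cells were grown in RPMI medium with fetal bovine serum, spun with virus, selected with puromycin and kept for at least 2 weeks before RNA was taken. The same protocol text stands on all 8 samples, so how the untransduced cells were handled is not given in the sources used here. Spinoculation, the integrated vector, puromycin and the weeks in culture came together in every transduced array and cannot be told apart. No source states that the arrays are separate cultures, and a p-value here therefore covers only the spread among arrays, part of which may be technical. That spread also holds differences between the constructs and, where both lines share a difference in the fit, between the lines. No untransduced array was repeated within a line.

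A transduced control line is made by inserting a vector that carries a hairpin and a drug resistance gene, then killing the cells without it. Puromycin ends protein chains early, and the cellular microRNA machinery processes the hairpin. Proliferating T-ALL cells draw on cholesterol made from acetyl-CoA, a pathway that the sterol-regulated factors SREBF1 and SREBF2 switch on. They also hold a stress pathway, the integrated stress response, in which the factor ATF4 raises DDIT3, TRIB3, ATF5 and genes of amino acid synthesis.

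With both lines in 1 fit, 11 of 14 tested genes of cholesterol synthesis, 13 of 20 of DNA replication and 28 of 30 of mitosis rose in transduced cells. HBEGF, the stress genes TRIB3, ATF5 and DDIT3, the endoplasmic reticulum sensor ERN1 and the chemokine receptor CCR8 were lower. With cell line as a term, 984 of 8930 tested genes passed a Benjamini-Hochberg adjusted p of 0.05 in limma (11.0% of genes tested). Of these, 533 were higher (5.97% of genes tested) and 451 lower (5.05% of genes tested). The median difference over all tested genes was 0.03 on the log2 scale. A difference of at least 1 on that scale was found for 50 of the higher and 63 of the lower genes. In CCRF-CEM alone 4, 5 and 15 members of the 3 lists were called (3.44% of all genes tested), and in HPB-ALL alone 0, 0 and 2 (0.134% of all genes tested). In each line alone 11, 14 and 28 of them had an unadjusted p under 0.05 in limma. All 984 had the 3 transduced arrays on the same side of the untransduced array in each line, the scramble array included. That pattern held for 37.2% of all tested genes, and 625 genes had all 3 arrays on opposite sides in the 2 lines. The largest rises and falls named below were chosen from called genes on the same side in both lines. Where every transduced array of such a gene lies beyond both untransduced arrays, part of that separation was fixed by the choice. The share of all tested genes with this wider separation was not counted, so the separation only describes the levels. SOSTDC1, CCR7 and PTCRA, chosen by the same rule, did not have it.

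The calls rest on 1 untransduced array per line. Leaving out the untransduced CCRF-CEM array left 12 called genes, and leaving out the untransduced HPB-ALL array left 307, since each fit then holds only the other line's comparison. Called cholesterol, replication and mitosis genes then numbered 0, 0 and 2 without the former array and 4, 5 and 15 without the latter. Leaving out the CCRF-CEM shTOX-2 array left 633 called genes. For a single gene, an exact permutation of the untransduced label within lines has 16 assignments and cannot give a two-sided p below 0.0625.

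Array medians over 53617 probe sets lay between 4.62 and 4.71 (log2 intensity), which would hide any shift common to all genes. Across tested genes, transduced arrays of a line correlated with each other at 0.979 to 0.985, and with their untransduced array at 0.949 to 0.965 in CCRF-CEM and at 0.966 to 0.972 in HPB-ALL. TOX itself was at log2 11.03 in both the scramble and the untransduced CCRF-CEM arrays and at 10.65 and 9.86 with shTOX-1 and shTOX-2. HPB-ALL had TOX at 10.59 with scramble, 10.16 with shTOX-1, 8.75 with shTOX-2 and 10.64 without vector. TOX was thus lowest with shTOX-2 in each line, and scramble arrays lay beside the untransduced ones; its transduced minus untransduced difference was -0.66 ± 0.42 (adjusted p = 0.341). The T cell markers CD247, CD5, CD7, LCK, TRAT1 and BCL11B were above the filter level (log2 5.18) in all 8 arrays. Their 6 differences were all negative and none was called by limma, though 2 had an unadjusted p under 0.05. Their median was -0.20 with scramble and -0.57 with shTOX. Summed over the list's 7 measured genes, linear intensity was 5838 to 7065 in transduced and 8156 in untransduced CCRF-CEM cells, and 2027 to 3158 against 4141 in HPB-ALL. CD2, among those 7, was at 4.04 to 4.60 in HPB-ALL, below the filter level, and CD3D, CD3E and CD3G were not analysed here. Marker lists of B, myeloid, NK, erythroid or megakaryocytic, and fibroblast or epithelial cells had 2, 5, 2, 4 and 3 tested genes, of which limma called none over both lines and 1, 0, 0, 1 and 0 had an unadjusted p under 0.05. In CCRF-CEM alone 1 of these genes was called, CR2 of the B cell list, which fell by 2.88 (adjusted p = 0.00088).

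**Figure D1:**
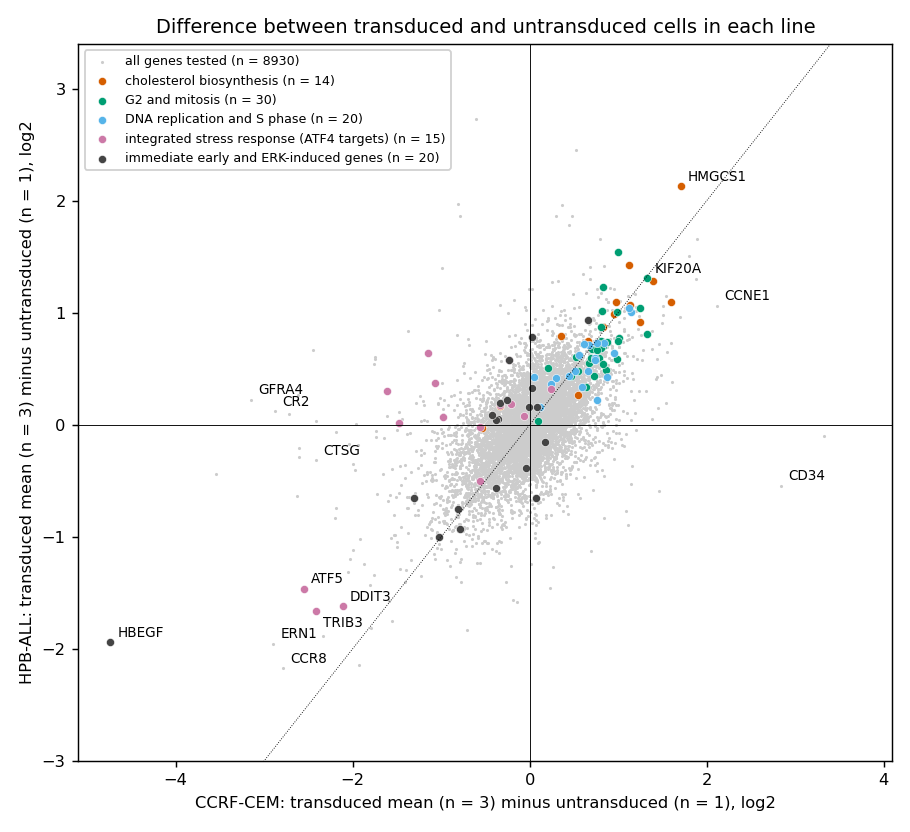
Each point is a tested gene, with the log2 difference between the mean of 3 transduced arrays and the untransduced array in CCRF-CEM on the horizontal axis and in HPB-ALL on the vertical axis; the dotted line marks equal differences. Mitosis, S phase and cholesterol genes sit in the upper right, TRIB3, ATF5, DDIT3, ERN1, CCR8 and HBEGF in the lower left, and CD34, GFRA4, CR2 and CTSG lie away from the dotted line, with smaller differences in HPB-ALL.

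The cholesterol pathway gave the highest list median. Of its 14 tested genes, 11 rose and none fell, with a median difference of 1.01 on the log2 scale against 0.03 over all tested genes. HMGCS1, which condenses acetyl groups to HMG-CoA early in the pathway, had the largest rise of all called genes. Its log2 level in CCRF-CEM was 7.10 without vector and 8.15, 9.28 and 9.0 with scramble, shTOX-1 and shTOX-2. The corresponding HPB-ALL levels were 6.83, then 9.08, 8.89 and 8.93. The lowest transduced array of either line thus stood above both untransduced arrays, and in CCRF-CEM the scramble array was the lowest of the transduced ones. The difference was 1.92 ± 0.25 (SE; 3.78-fold; limma adjusted p = 0.00326).

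MVK, which phosphorylates mevalonate, rose by 1.34 ± 0.23 on the log2 scale (adjusted p = 0.00895). SQLE, the squalene epoxidase that makes the first oxygenation step toward sterols, rose by 1.34 ± 0.21 (adjusted p = 0.00622), and MSMO1, a sterol demethylase component, by 1.27 ± 0.20 (adjusted p = 0.0075). SQLE was at 7.72 in untransduced and at 8.83 to 9.68 in transduced CCRF-CEM cells, and at 7.97 against 8.97 to 9.13 in HPB-ALL. The groups did not overlap for these 3 enzymes, which were chosen from called genes already on the same side in both lines. In CCRF-CEM the scramble array was again the lowest transduced array for each of the 3. The cytosolic thiolase ACAT2 (1.10), the mevalonate decarboxylase MVD (1.08), NSDHL (1.04), DHCR7 (0.97), EBP (0.85), the isomerase IDI1 (0.71) and FDPS (0.58) made up the other called members. PMVK (0.41, adjusted p = 0.087), TM7SF2 (-0.08) and HSD17B7 (-0.28) were not called. The remaining enzymes of the list were not analysed here.

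Around the pathway, the regulator SREBF2 rose by 0.74 ± 0.18 (adjusted p = 0.026) and the sterol carrier STARD4 by 1.13 ± 0.28 (adjusted p = 0.0297). These were 2 of 6 tested genes of sterol sensing and uptake, whose median was 0.36. Calls in the lists of this paragraph are set beside 11.0% of all tested genes called. SREBF1, the form tied to fatty acid genes, was at -0.12 ± 0.30, and INSIG1, which holds SREBP factors in the endoplasmic reticulum, differed by -0.04 in CCRF-CEM and 1.02 in HPB-ALL without a call in either. Of 10 fatty acid synthesis genes (median 0.31), FADS2 (0.99), FASN (0.68) and ACLY (0.55) rose, and none fell. MYLIP, a sterol-induced ubiquitin ligase, fell by 1.04 ± 0.29 (adjusted p = 0.047) and was 1 of 2 tested genes among sterol efflux and LXR targets. It differed by -0.53 with scramble and by -1.30 with shTOX.

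Promoter sequences were set beside the lists whose members moved together. The RefSeq table (GRCh38.p14) gives 250 bases before and 50 after each annotated start, and a match was counted on either strand in any window of a gene. Of the 13 called genes of cholesterol synthesis and sterol sensing, 11 had a window, and all 11 held CCAAT, the box bound by NF-Y. That box was in 39.7% of the 27305 genes in the table and in 42.8% of tested genes with a window. The sterol element core CACCCCAC was in 1 of the 11, against 3.39% of all genes and 3.6% of tested genes with a window. HMGCS1 and MVK are shown as the most changed members with a window, and SREBF2 as the one with the sterol core. Capitals mark CCAAT or its reverse complement ATTGG in the first and second lines, and the sterol core in the last line. The stretches are chr5:43313438-43313587 (minus strand), chr12:109573564-109573713 (plus) and chr22:41832953-41833102 (plus), ending 25, 80 and 2 bases before the start site.
HMGCS1: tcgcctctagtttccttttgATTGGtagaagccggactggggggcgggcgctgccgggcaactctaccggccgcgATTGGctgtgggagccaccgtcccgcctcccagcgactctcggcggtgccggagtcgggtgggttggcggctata
MVK: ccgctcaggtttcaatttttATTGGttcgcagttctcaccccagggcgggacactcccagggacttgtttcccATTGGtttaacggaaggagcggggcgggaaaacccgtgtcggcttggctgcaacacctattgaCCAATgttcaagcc
SREBF2: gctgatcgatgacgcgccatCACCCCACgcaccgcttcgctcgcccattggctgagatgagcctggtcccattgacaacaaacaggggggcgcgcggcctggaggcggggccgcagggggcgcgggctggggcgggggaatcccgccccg
A match describes these letters only and was not tested as a binding site.

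Genes of mitosis had the highest share of called members. Of 30 tested genes of G2 and mitosis, 28 rose and none fell, with a median difference of 0.73. KIF20A, a kinesin of the dividing spindle midzone, was at 8.47 in untransduced CCRF-CEM cells and at 9.66, 9.79 and 9.94 with scramble, shTOX-1 and shTOX-2. In HPB-ALL it was at 8.28 and then 9.52, 9.56 and 9.68. All 6 transduced arrays lay above both untransduced arrays. The difference was 1.32 ± 0.12 (adjusted p = 0.00113), called within each line too (adjusted p = 0.00864 and 0.0379).

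Cyclin B1 (CCNB1), the partner of CDK1 at mitotic entry, went from 8.01 to a range of 8.86 to 9.17 in CCRF-CEM, and from 6.99 to a range of 8.28 to 8.73 in HPB-ALL. Its difference was 1.27 ± 0.17 (adjusted p = 0.00329). The lowest transduced level, that of scramble in HPB-ALL, was above both untransduced levels. Cyclin F (CCNF), a ubiquitin ligase subunit of G2, rose by 1.29 ± 0.17 (adjusted p = 0.00329). Survivin (BIRC5) rose by 1.15, the hyaluronan receptor HMMR by 1.07, cyclin A2 (CCNA2) by 1.03 and the spindle checkpoint kinase BUB1 by 1.00. The proliferation antigen MKI67 (0.84) and the mitotic transcription factor FOXM1 (0.79) rose as well. CDC25B (0.06) and PTTG1 (0.36) were the members not called.

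Among 20 DNA replication genes, 13 rose and none fell, with a median of 0.62. The largest rises were those of CLSPN, a checkpoint adaptor at forks (1.08 ± 0.20, adjusted p = 0.0109), and FEN1, the flap nuclease of lagging strands (1.07 ± 0.13, adjusted p = 0.00282). FEN1 stood at 7.78 without vector and 8.91 to 8.93 with vector in CCRF-CEM, and at 7.45 against 8.33 to 8.67 in HPB-ALL. The helicase subunits MCM2 (0.80), MCM5 (0.66), MCM3 (0.57) and MCM4 (0.50) were called, whereas MCM6 (0.24) and MCM7 (0.14) were not. Ribonucleotide reductase subunits RRM2 (0.75) and RRM1 (0.65) and thymidylate synthase TYMS (0.69) rose. A second CLSPN probe set, at a mean of 3.27, was near the bottom of the scale and differed by -0.05.

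Calls in the lists of G1 control and of ribosome production are set beside 11.0% of all tested genes called. Of 17 genes of G1 control, CCNE1 and CDC25A rose, and the list's median was 0.22. Cyclin E1 (CCNE1), which drives entry into S phase, was at 6.61 in untransduced CCRF-CEM cells and at 8.36, 9.27 and 8.54 with scramble, shTOX-1 and shTOX-2. It was at 6.66 and then 7.31, 7.55 and 8.30 in HPB-ALL. Both untransduced arrays lay below every transduced one, and the difference was 1.59 ± 0.32 (adjusted p = 0.0158). The phosphatase CDC25A rose by 0.89 ± 0.12 (adjusted p = 0.00445). D cyclins differed by 0.09 (CCND1), 0.10 (CCND2) and -0.46 (CCND3) without a call, and E2F1 by 0.22. Of 15 genes of MYC and ribosome production (median 0.25), NOP16, NCL and ODC1 rose while MYC itself was at -0.47 ± 0.21 (adjusted p = 0.164).

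Promoter windows of replication and mitosis genes were searched for cell cycle elements. The E2F-type strings TTTCCCGC, TTTGGCGC or TTTCGCGC were in 6 of 11 called S phase genes with a window. They were in 3.30% of all genes and 5.48% of tested genes with a window. The cell cycle homology element TTTGAA was in 18 of 24 called mitosis genes with a window, against 18.2% of all genes and 13.2% of tested genes. CCAAT was in 21 of the 24, against 39.7% and 42.8%. TYMS and UHRF1 show the first kind, and HMMR and KIF23 the second. Capitals mark the match on either strand, at chr18:657503-657652, chr19:4909351-4909500, chr5:163460482-163460631 and chr15:69414199-69414348, all on the plus strand.
TYMS: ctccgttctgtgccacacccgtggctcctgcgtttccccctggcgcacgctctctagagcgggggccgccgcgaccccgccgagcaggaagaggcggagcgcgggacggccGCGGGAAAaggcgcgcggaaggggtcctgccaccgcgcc
UHRF1: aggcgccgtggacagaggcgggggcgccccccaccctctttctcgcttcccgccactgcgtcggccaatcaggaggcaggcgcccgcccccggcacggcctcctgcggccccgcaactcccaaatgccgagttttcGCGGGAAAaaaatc
HMMR: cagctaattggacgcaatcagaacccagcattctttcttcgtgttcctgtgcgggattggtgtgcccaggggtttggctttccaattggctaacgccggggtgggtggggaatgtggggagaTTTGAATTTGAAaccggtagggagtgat
KIF23: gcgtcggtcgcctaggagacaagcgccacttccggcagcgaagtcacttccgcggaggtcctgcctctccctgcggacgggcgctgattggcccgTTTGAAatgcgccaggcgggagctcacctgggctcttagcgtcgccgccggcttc
The E2F-type match begins 39 bases before the start in TYMS and 14 before it in UHRF1, and HMMR holds 2 adjoining cell cycle elements.

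**Figure D2:**
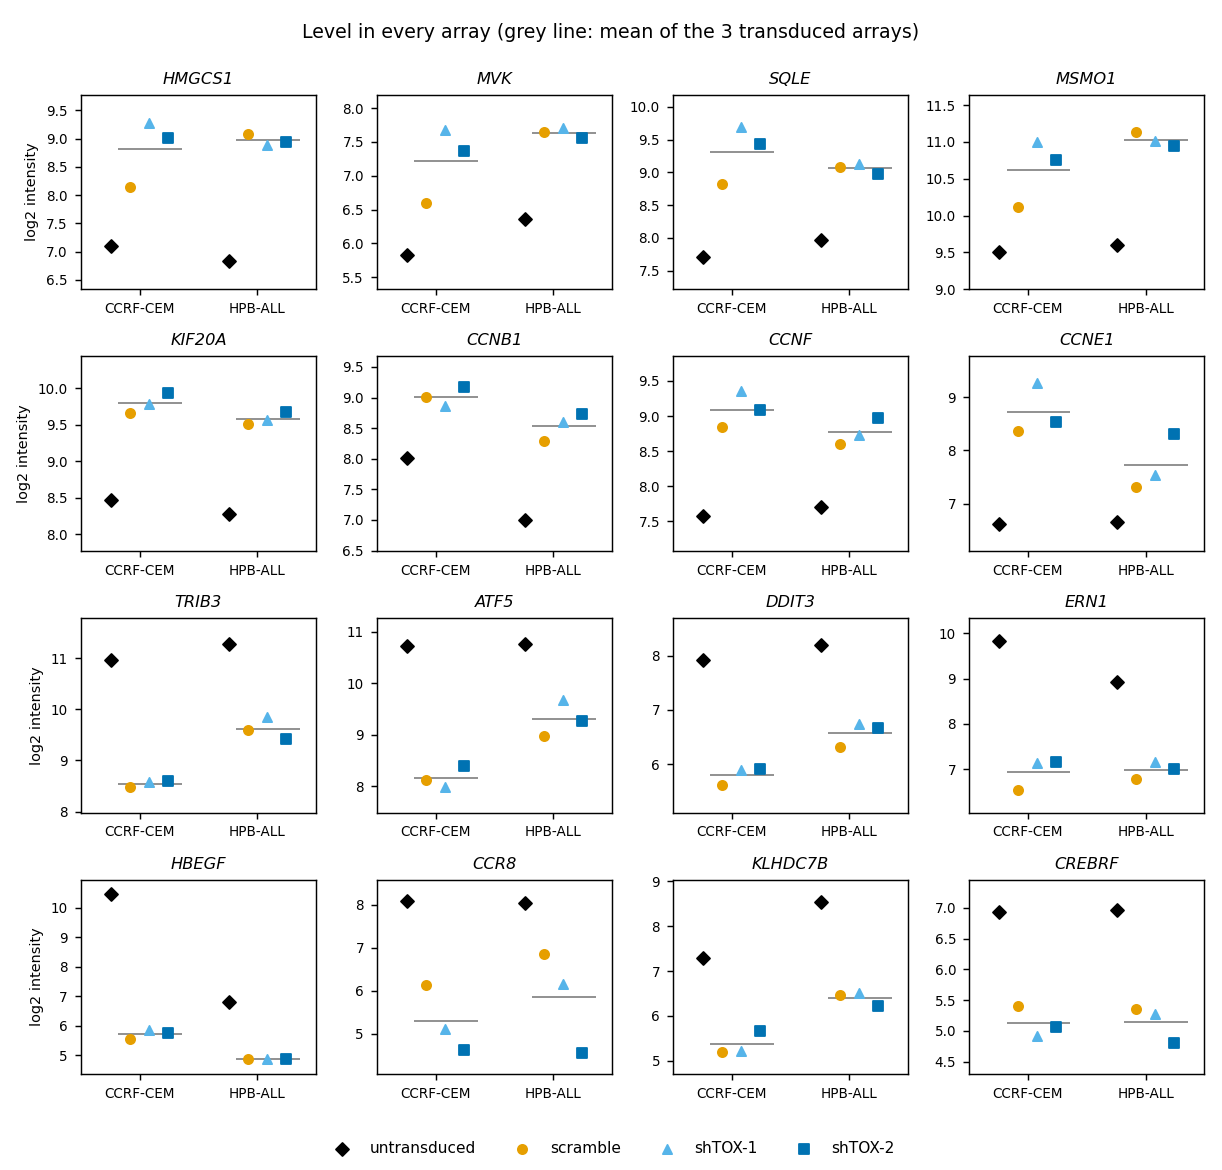
Log2 intensity of 16 named genes in all 8 arrays, with the line on the horizontal axis, a symbol for each construct and a grey line at the mean of the 3 transduced arrays. In the 8 upper panels the untransduced array is the lowest of its line and in the 8 lower panels the highest.

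Some stress genes were among the largest falls in transduced cells. TRIB3, a pseudokinase induced by ATF4, was at 10.96 in untransduced CCRF-CEM cells and at 8.48, 8.57 and 8.59 with scramble, shTOX-1 and shTOX-2. Its HPB-ALL levels were 11.28 and then 9.59, 9.84 and 9.42. Every transduced array lay below both untransduced arrays, a separation partly fixed by the choice of the gene. The difference was -2.04 ± 0.18 (4.12-fold lower; adjusted p = 0.00113).

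ATF5, a stress-induced transcription factor, fell by 2.01 ± 0.25 (adjusted p = 0.00299), from 10.72 to a range of 7.99 to 8.39 in CCRF-CEM and from 10.77 to a range of 8.97 to 9.68 in HPB-ALL. DDIT3, the pro-apoptotic factor CHOP, fell by 1.87 ± 0.17 (adjusted p = 0.00113), from 7.92 to a range of 5.61 to 5.91 and from 8.20 to a range of 6.31 to 6.74. CREBRF, a regulator of CREB3 degradation in stressed cells, fell by 1.81 ± 0.17 (adjusted p = 0.00154); its transduced levels, 4.80 to 5.41, lay around the filter level. The scramble arrays shared these falls, and scramble had the lowest DDIT3 of each line.

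These 3 ATF4 targets did not stand for the whole list. Calls in this list are set beside 11.0% of all tested genes called, with 5.05% called lower. Of its 15 tested genes, TRIB3, ATF5 and DDIT3 fell and none rose, with a median of -0.35. ATF4 itself, regulated mainly at translation, was at 0.01 ± 0.11 (adjusted p = 0.977). By line, the median was -0.97 (CCRF-CEM) against 0.07 (HPB-ALL). ASNS, which makes asparagine, was at 7.43 in untransduced CCRF-CEM cells and 6.14 to 6.47 in transduced ones, but at 8.61 against 9.12 to 9.38 in HPB-ALL. Its transduced arrays thus lay on opposite sides in the 2 lines, and the test of that difference was not called (1.79 on the log2 scale, adjusted p = 0.075). SESN2 and VLDLR were lower in CCRF-CEM as well, by -1.48 and -1.62, with differences of 0.02 and 0.30 in HPB-ALL.

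ERN1, the endoplasmic reticulum kinase and nuclease that splices XBP1, fell by 2.43 ± 0.23 (5.38-fold lower; adjusted p = 0.00154). It went from 9.84 to 6.54, 7.13 and 7.16 in CCRF-CEM and from 8.93 to 6.78, 7.16 and 7.0 in HPB-ALL, with scramble the lowest in each line. SEL1L, an adaptor of protein degradation at the endoplasmic reticulum, fell by 1.08 ± 0.13 (adjusted p = 0.00299). The other 8 tested genes of the unfolded protein response were not called, among them XBP1 (-0.20), CALR (0.13) and MANF (0.00), and the list's median was -0.10. Calls in the lists of this paragraph are set beside 11.0% of all tested genes called. Of 8 genes in the NRF2 list, TXNRD1 (0.84), PRDX1 (0.75) and TXN (0.57), genes of redox control, rose, with a list median of 0.59. KEAP1, which holds NRF2 back, rose as well (0.80). None of the 8 fell. In the heat shock list of 8 genes, HSPB1 fell (-0.47) and the median was -0.40. HSPA1A and HSPA1B, near-identical genes that share sequence, differed by -1.73 each in CCRF-CEM and by -0.05 and -0.11 in HPB-ALL.

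HBEGF, an epidermal growth factor receptor ligand induced by ERK signalling, had the largest difference of all called genes. It was at 10.46 in untransduced CCRF-CEM cells and at 5.54, 5.87 and 5.75 with scramble, shTOX-1 and shTOX-2. In HPB-ALL it was at 6.79 and then 4.86, 4.86 and 4.85, under the filter level. All 6 transduced arrays lay below both untransduced ones, and the difference was -3.34 ± 0.46 (adjusted p = 0.00381). Other immediate early genes fell less: IER3 by 1.02, EGR1 by 0.98, FOS by 0.86 and JUNB by 0.78, each a rapidly induced factor of mitogen signalling. KLF10 rose by 0.80 and the other 14 of the 20 tested members were not called, with JUN at 0.41 and DUSP6 at -0.17. The list's median was -0.16, and over all tested genes 11.0% were called. Dimmer second probe sets for EGR1 (0.10) and FOS (0.35) did not show the fall, nor did the dimmer ones for IER3 (0.00), whereas its brighter ones lay between -1.02 and -1.06.

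Of 13 tested chemokine, cytokine and receptor genes, CCR8 fell, CCR7 and CCL5 rose and 10 were not called, beside 11.0% of all tested genes called. CCR8 was at 8.08 in untransduced CCRF-CEM cells and at 6.13, 5.12 and 4.63 with scramble, shTOX-1 and shTOX-2. It was at 8.03 and then 6.84, 6.15 and 4.56 in HPB-ALL. The difference was -2.48 ± 0.53 (adjusted p = 0.0183), and in each line the scramble array stood nearest to the untransduced one and shTOX-2 farthest. CCR7, which guides T cells to lymph nodes, rose by 1.33 ± 0.29 (adjusted p = 0.0205), from 7.69 to a range of 8.92 to 9.92 and from 9.59 to a range of 10.01 to 10.90. For CCR7 the scramble arrays were the highest of each line. The chemokine CCL5 rose by 0.52.

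Most interferon genes were not called. Of 24 tested, IFIT1 and IFIT3, antiviral RNA-binding proteins, rose, TRIM22 and IRF9 fell and 20 were not called, beside 11.0% of all tested genes called, and the median was 0.20. IFIT1 was at 5.20 in untransduced and 6.80, 6.91 and 7.24 in transduced HPB-ALL cells, and at 3.65 against 3.95 to 4.21 in CCRF-CEM, under the filter level throughout. The difference was 1.11 ± 0.25 over both lines (adjusted p = 0.0221) and 1.79 in HPB-ALL alone (adjusted p = 0.0225). The RNA sensors RIGI (0.24) and IFIH1 (0.36), MX2 (-0.58) and ISG15 (0.25) were not called. Among 12 genes that sense foreign nucleic acid, the kinase TBK1 rose (0.97) and the receptor TLR9 (-0.73) and restriction factor TRIM5 (-0.48) fell. Of 7 tested genes of small RNA processing, TNRC6C, a partner of Argonaute proteins, fell by 0.66 and the rest were not called.

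**Figure D3:**
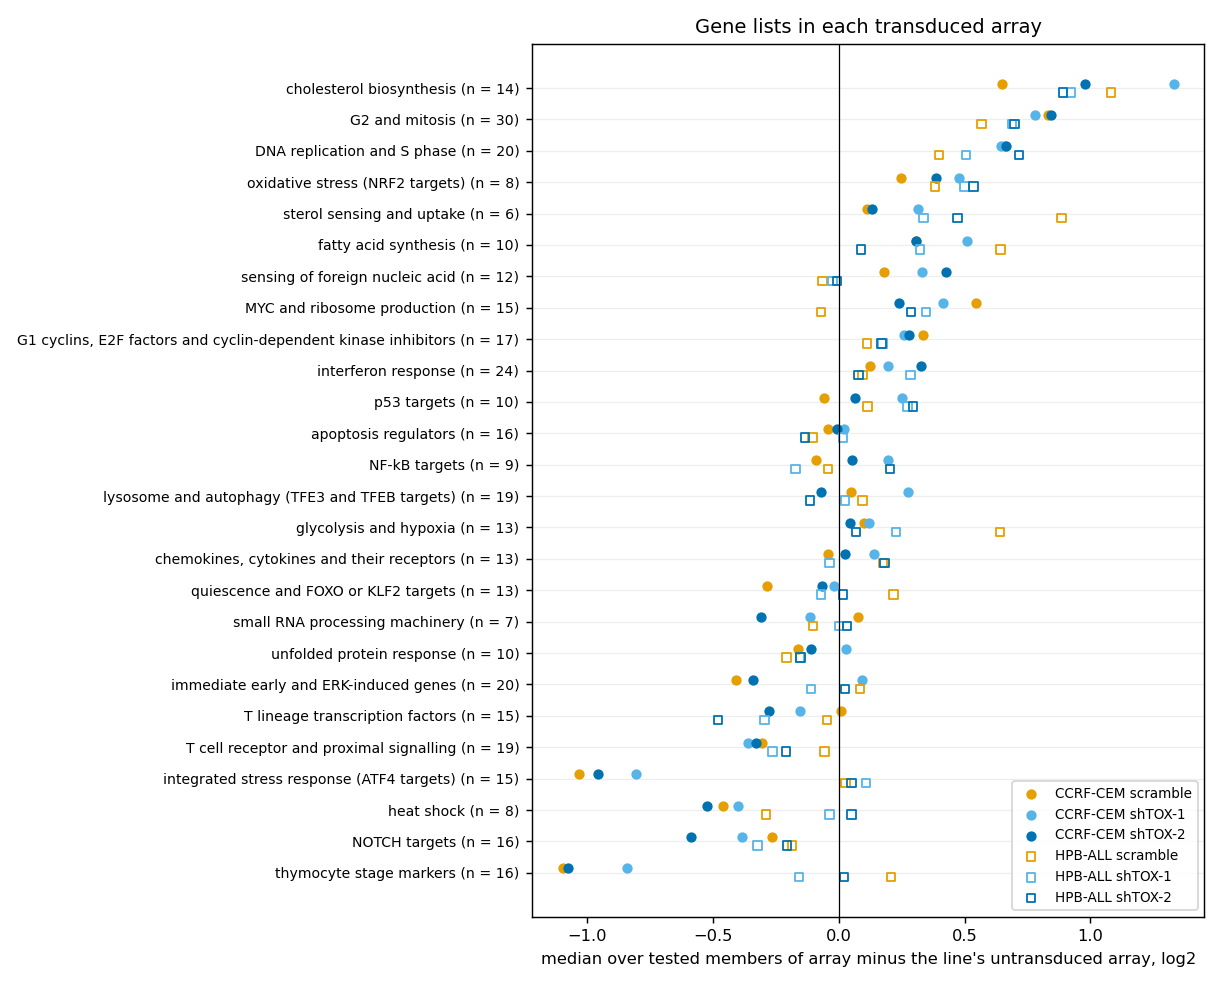
Each point is the median, over the tested genes of a list, of 1 transduced array minus the untransduced array of its line, on the log2 scale; filled circles are CCRF-CEM, open squares HPB-ALL, and the colour gives the construct. Cholesterol, mitosis and S phase lists lie to the right of 0 in all 6 arrays, whereas the stress response and thymocyte lists lie near -1 in CCRF-CEM and near 0 in HPB-ALL.

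Calls in the lists of T cell genes are set beside 11.0% of all tested genes called. In the list of the T cell receptor and its proximal signalling, the only call among 19 tested genes was a rise of the exchange factor VAV1 (0.48). The median was -0.28, and 5 of the 19 differences were positive, against 54.2% over all tested genes. With scramble and shTOX kept apart, the list's median was -0.04 with scramble and -0.37 with shTOX. Of 15 T lineage transcription factors (median -0.25, with -0.05 for scramble and -0.32 for shTOX), TCF12 fell (-0.46). Of 16 NOTCH targets (median -0.41, with -0.30 for scramble and -0.48 for shTOX), PTCRA, HES4 and NOTCH1 fell. PTCRA, the pre-T cell receptor alpha chain, was at 11.15 in untransduced CCRF-CEM cells and at 7.84, 9.07 and 8.64 in transduced ones, against 7.30 and 6.90, 6.62 and 6.46 in HPB-ALL. Its difference was -1.63 ± 0.41 (adjusted p = 0.0317), and the CCRF-CEM part was the larger (-2.63 against -0.63), a gap whose own test was not called (adjusted p = 0.535). RAG2, of the recombinase that assembles receptor genes, fell by 0.73 ± 0.20 (adjusted p = 0.0438).

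Each line alone gave fewer calls. In CCRF-CEM 307 genes were called (3.44% of genes tested). Of these, 152 were higher (1.70%) and 155 lower (1.74%). In HPB-ALL 12 were called (0.134% of genes tested), 5 higher (0.0560%) and 7 lower (0.0784%). Unadjusted p-values under 0.05 numbered 1835 in CCRF-CEM and 1418 in HPB-ALL, where 446 would be expected by chance. The CCRF-CEM calls numbered 95, 101 and 202 without the CCRF-CEM shTOX-1, CCRF-CEM shTOX-2 and HPB-ALL shTOX-1 array. The HPB-ALL calls numbered 2, 2, 3 and 0 without CCRF-CEM shTOX-1, CCRF-CEM shTOX-2, HPB-ALL shTOX-1 and HPB-ALL shTOX-2, and 20 without CCRF-CEM scramble. The lines share no array, and across tested genes their differences correlated at 0.574, as a description without a p since genes are not independent; 71.0% of genes had the same sign. Among the 984 genes called with both lines, the difference was the larger in CCRF-CEM for 64.0%.

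CCRF-CEM cells showed a change of some thymocyte stage genes. CD1B and CD1C, antigens of cortical thymocytes, the recombinase genes and the thymic homing receptor CCR9 were lower in transduced cells, and CD34, the marker of early progenitors, was higher. Of 16 tested stage markers, CD1B (-3.54), PTCRA (-2.63), CCR9 (-2.61), CD1C (-2.04), RAG2 (-1.23) and RAG1 (-0.92) fell in that line and CD34 (2.84) rose. Over all tested genes 3.44% were called there, and the other tested markers were not. CCR7, described above, differed by 1.70 in that line without a call (limma adjusted p = 0.052). Over both lines 1 of the 16 markers was called higher and 2 lower, and CD34 was not called (limma adjusted p = 0.206). None of the markers was called in HPB-ALL, where 0.134% of all tested genes were. The difference between the lines was itself called for CD34 alone of these markers. CD1B stood at 9.94 without vector and at 7.45, 6.34 and 5.39 with scramble, shTOX-1 and shTOX-2, a wide spread among transduced arrays. CD34 stood at 5.52 and then 8.05, 8.48 and 8.55. HPB-ALL cells had CD1B at 3.45 to 4.02 and CD34 at 4.29 to 5.05 in all 4 arrays, under the filter level. GBP4, an interferon-induced GTPase, had the largest rise in CCRF-CEM, 3.32 (adjusted p = 0.00284), from 4.48 to a range of 7.26 to 8.27.

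The largest called fall and rise in HPB-ALL were those of KLHDC7B and EID3. KLHDC7B, a kelch-repeat protein, fell by 2.14 there (adjusted p = 0.0188), from 8.54 to a range of 6.22 to 6.51, and differed by -1.93 in CCRF-CEM (adjusted p = 0.00547). ERN1, HBEGF, CREBRF and TRIB3 were the next largest falls. EID3, an inhibitor of differentiation that binds EP300, rose by 1.96 (adjusted p = 0.0441), with 5.64 in untransduced and 7.35 to 8.0 in transduced cells. IFIT1, CCNB1, KIF20A and COMMD4 were the other 4 rises.

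The difference itself differed between the lines for 6 genes (0.0672% of genes tested), in HPB-ALL above CCRF-CEM for 5 (0.0560%) and below it for 1 (0.0112%). Unadjusted p-values under 0.05 for this test numbered 425, against 446 expected by chance. GFRA4, a receptor for a neurotrophic factor, was at 8.86 in untransduced and 5.37 to 5.91 in transduced CCRF-CEM cells, but at 4.84 and 4.93 to 5.31 in HPB-ALL. CR2, the complement receptor of the B cell and NOTCH target lists, was at 8.16 and 4.91 to 5.53 in CCRF-CEM and at 4.33 to 4.58 in all HPB-ALL arrays. In both cases HPB-ALL cells had little signal with or without vector. CTSG, a serine protease of myeloid granules, fell from 10.26 to a range of 7.71 to 7.92 in CCRF-CEM; in HPB-ALL it was at 11.89 without vector and at 11.49 to 11.72 with it. CD34, HBEGF and the zinc finger gene ZNF555 were the other 3. With the filter at the 60th percentile of gene means no gene was called (255 genes had an unadjusted p under 0.05 in limma). That filter left out CD34, HBEGF, GFRA4, CR2 and ZNF555 for their low means, so of the 6 only CTSG was tested again.

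**Figure D4:**
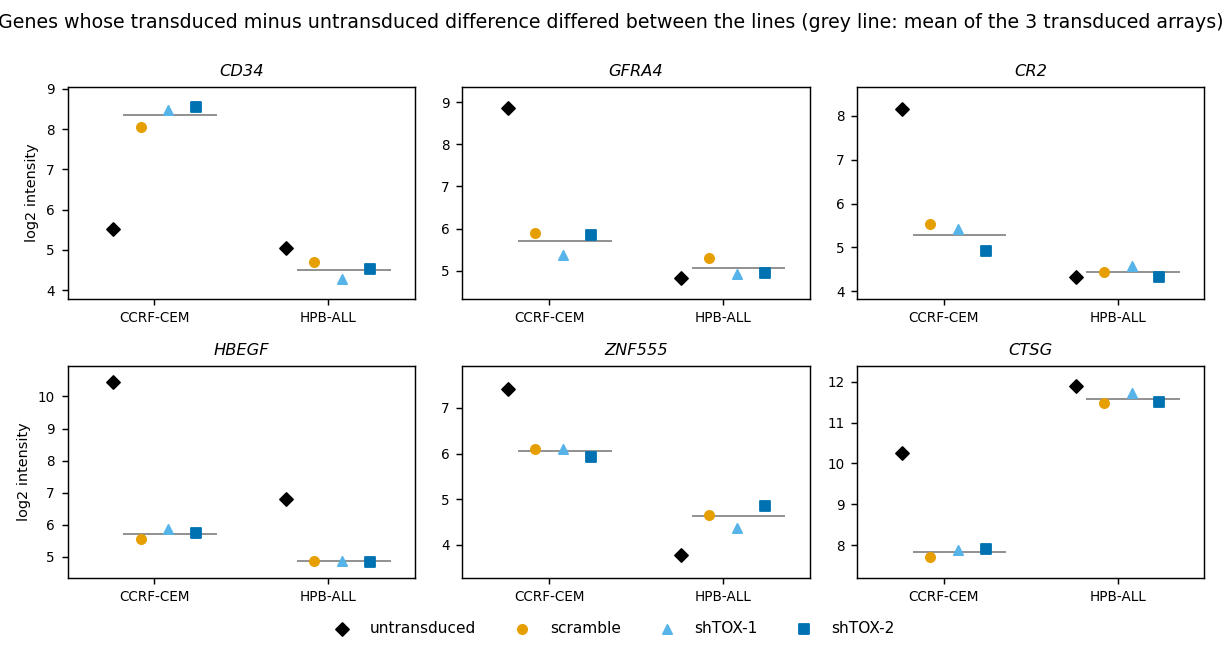
Log2 intensity in all 8 arrays of the 6 genes whose transduced minus untransduced difference differed between CCRF-CEM and HPB-ALL, with a symbol for each construct and a grey line at the transduced mean. In CCRF-CEM the untransduced array stands more than 1 from the nearest transduced array in each panel, and in HPB-ALL the arrays lie closer together.

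Scramble arrays were set against untransduced ones in a fit that kept scramble and shTOX apart. They gave 95 calls (1.06% of genes tested) from 1 array per line, 52 higher (0.582%) and 43 lower (0.482%). The shTOX arrays gave 1056 (11.8% of genes tested) from 2 per line, 552 higher (6.18%) and 504 lower (5.64%). The 2 comparisons share the untransduced arrays and differ in the number of arrays, so only values are set side by side. Without the untransduced CCRF-CEM array the counts were 4 and 25, and without the untransduced HPB-ALL array 58 and 360; every other array left out but CCRF-CEM shTOX-1 lowered the scramble count to between 3 and 41, and leaving out 1 shTOX array gave 584 to 846 for shTOX. HMGCS1 differed by 1.64 with scramble and 2.06 with shTOX, KIF20A by 1.22 and 1.37, TRIB3 by -2.09 and -2.02, and HBEGF by -3.43 and -3.29. ERN1 was at -2.73 and -2.28, CCR8 at -1.57 and -2.94, and CCR7 at 1.77 and 1.12. The cholesterol list had a median of 0.86 with scramble and 1.09 with shTOX, the mitosis list 0.71 and 0.75, and the S phase list 0.61 and 0.63. Of their members, 2 of 14, 9 of 30 and 2 of 20 were called with scramble. Without the 4 shTOX arrays the fit had 1 residual degree of freedom and limma called 0 genes, with 1473 at an unadjusted p under 0.05.

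A few small RNA genes were among the largest changes on both sides. MIR16-2 rose by 1.65 ± 0.35 (adjusted p = 0.0181), from 4.56 to 7.31, 5.61 and 6.17 in CCRF-CEM and from 4.09 to 5.32, 5.91 and 5.57 in HPB-ALL. Its untransduced levels were under the filter level, and the scramble CCRF-CEM array was the highest. MIR15A fell by 1.17 ± 0.27 (adjusted p = 0.0252) and MIR424 by 0.59 ± 0.15 (adjusted p = 0.034). The mature products of these 3 genes share a seed, bases 2 to 8, which sets the targets of a microRNA. They are shown, from RefSeq on GRCh38.p14, because genes with the same seed moved in opposite directions; capitals mark the seed.
hsa-miR-16-5p: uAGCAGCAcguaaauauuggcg
hsa-miR-15a-5p: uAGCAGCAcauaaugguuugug
hsa-miR-424-5p: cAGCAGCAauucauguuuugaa
The arrays measured labelled total RNA, and whether these probe sets read the mature product or its longer precursor was not tested. SMC4, the condensin gene whose span holds MIR16-2, differed by 0.25 ± 0.12 (adjusted p = 0.191).

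Of the 279 tested MIR genes, 7 rose and 17 fell, so that 8.60% were called against 11.0% of all tested genes. MIR891A rose by 1.34, while MIR3143 (-1.65), MIR223 (-1.58) and MIR29C (-1.51) fell. MIR3143 was bright in all arrays, at 11.64 and 12.10 without vector and at 9.93 to 10.66 with it. MIR191 and MIR425, neighbours on chromosome 3 within the span of DALRD3, fell by 1.01 and 0.65, and DALRD3 differed by -0.01. The small Cajal body RNA genes, guides of spliceosomal RNA modification, numbered 17 tested, of which 5 fell and SCARNA9L rose (1.78 ± 0.28, adjusted p = 0.00663). SCARNA5 (-1.26) and SCARNA6 (-1.41) lie in ATG16L1, which differed by -0.25 without a call.

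Other genes among the 15 largest rises and 15 largest falls had no list. SOSTDC1, a secreted antagonist of BMP and WNT signals, rose by 1.59 ± 0.21 (adjusted p = 0.00326), from 6.31 to a range of 7.73 to 8.46 in CCRF-CEM and from 9.09 to a range of 10.21 to 10.54 in HPB-ALL. RANBP1, a regulator of nuclear transport, rose by 1.24 and HHEX, a homeobox factor of early blood cells, by 1.20. A second RANBP1 probe set differed by 0.88. Among the falls were GSDMB (-1.55), of the pore-forming gasdermins, the transcriptional repressor ZBTB20 (-1.55) and the pseudogene LDC1P (-1.47). VEGFA, an angiogenic factor in the hypoxia list, fell by 1.45 ± 0.40 (adjusted p = 0.0449), with -2.60 in CCRF-CEM and -0.29 in HPB-ALL. GPI, a glycolytic enzyme, rose by 0.53 and the other 11 of 13 tested genes of that list were not called. Over all tested genes 11.0% were called.

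The remaining lists are set beside 11.0% of all tested genes called. Of 16 apoptosis regulators none was called by limma, with 5 at an unadjusted p under 0.05 and a median of 0.10. Of 10 p53 targets SESN1 rose (0.48), and of 13 quiescence genes SESN1 rose and CCNG2, an atypical cyclin, fell (-0.63). In the lysosome and autophagy list of 19 genes, TFE3, a factor that drives it, rose by 0.71, and FNIP1 (-0.86) and MAP1LC3B (-0.71) fell. The NF-kB list of 9 genes had a rise of CCL5 and falls of ICAM1 (-0.61) and IER3. No drug efflux transporter of the list was tested.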

How the data were processed

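RNA of 8 cell-line arrays was measured with Affymetrix GeneChip WT Plus labelling, per the labels. By their range, the deposited values are intensities on a log2 scale for each probe set; how the authors corrected, summarized and normalized them is not stated in these sources. Of 53617 probe sets, 16098 carried 1 gene symbol and stood for 14884 genes (the brightest probe set for the 779 with several); the 37519 without a symbol were tested only as an alternative. Genes whose mean reached the 40th percentile of gene means (log2 5.18), 8930 in all, entered limma 3.58.1 (R 4.3.3; lmFit, contrasts.fit, eBayes) at a Benjamini-Hochberg adjusted p under 0.05. Transduced against untransduced came from a fit with line and state (5 residual degrees of freedom); the lines alone and their difference from 4 group means (4 degrees); scramble and shTOX from a fit with treatment and line. Scripts were tested on simulated data. Values after ± are standard errors.

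The members, the 35 gene lists (6 of them cell type markers) and the rules were chosen with earlier results of these data known. Named genes were the 15 highest and 15 lowest called genes on the same side in both lines and above the filter level in 1 state of each line; 5 and 5 per line and for the difference; and up to 6 called members of each list, or else up to 4 by smallest p. Other members, the small RNA families with their overlapping genes, and genes given for an absent change were named after their values were seen. The 59 called genes with locus-type symbols were counted and not named. The number of arrays limits the precision.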

Additional observations from a re-analysis of the deposited data

Results flagged for a closer look

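For 6 genes, the difference between transduced and untransduced cells differed between the lines by its own test in limma, given here as the HPB-ALL minus the CCRF-CEM difference on the log2 scale. It was -3.38 ± 0.34 for CD34 (adjusted p = 0.0109), 3.38 ± 0.35 for GFRA4 (adjusted p = 0.0109) and 3.0 ± 0.34 for CR2 (adjusted p = 0.0186). HBEGF had 2.80 ± 0.25 (adjusted p = 0.00967), ZNF555 2.22 ± 0.29 (adjusted p = 0.0412) and CTSG 2.10 ± 0.26 (adjusted p = 0.0246). ZNF555 was lower in transduced CCRF-CEM cells (7.42 without vector, 5.93 to 6.11 with it) and higher in transduced HPB-ALL cells (3.79 without vector, 4.38 to 4.84 with it), the latter all under the filter level. HBEGF was at 6.79 in untransduced HPB-ALL cells against 10.46 in CCRF-CEM, and under the filter level in transduced HPB-ALL cells. Low signal may have cut short its measured fall there, which was not tested. Its transduced CCRF-CEM levels, 5.54 to 5.87, were low as well, so 2.80 is not a firm size of the gap. CD34, CR2 and ZNF555 were under the filter level in all 4 HPB-ALL arrays and GFRA4 was near it, so their values say little of a change in that line. Each value rests on 1 untransduced array per line.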

How the results depend on the processing

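The 984 calls between transduced and untransduced arrays became 78 with no line term, 424 without both shTOX-1 arrays, 293 without both shTOX-2 arrays and 0 without all 4 shTOX arrays (1473 at an unadjusted p under 0.05); leaving out 1 array gave 12 to 1095. The 15 largest rises and 15 largest falls kept their direction where they were tested: of their 683 values under the alternatives, 589 stayed called, 94 were no longer called and 0 reversed. Counts of called list members under the alternatives were added after seeing the data. Without the line term they were 5 of 14 cholesterol, 2 of 20 S phase, 10 of 30 mitosis, 1 of 15 stress response and 0 of 20 immediate early genes (5 at an unadjusted p under 0.05 for the last); without all 4 shTOX arrays each was 0 (11, 14, 28, 3 and 6 at an unadjusted p under 0.05 in limma), and without both shTOX-2 arrays S phase genes numbered 7. Leaving out 1 array gave 0 to 11, 0 to 14, 2 to 27, 2 to 6 and 1 to 6 in the same order. In CCRF-CEM, leaving out 1 array gave 95 to 326 calls. The 12 calls in HPB-ALL became 32 with no filter, 25 with the 60th percentile, 24 with a filter on the highest array, 4 after quantile normalization and 41 with eBayes trend, and 0 (1138 at an unadjusted p under 0.05) to 20 when 1 array was left out. The 6 line differences became 12, 0 and 13 under those 3 filters and 4 to 9 with 1 array left out. The 60th percentile filter kept only CTSG of the 6 genes. The 95 scramble calls became 162 with the 60th percentile, 182 with trend and 3 to 90 with 1 array left out; shTOX calls ranged from 25 to 1080. With construct as a replicate block the count was 923. Deviations of the same construct in the 2 lines correlated at -0.05, 0.08 and 0.21 for scramble, shTOX-1 and shTOX-2. Over all tested genes the same construct thus deviated little alike in the 2 lines, although TOX was lowest with shTOX-2 in each. Arrays left alone in a group are assumed to vary like the others.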

Other observations

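Long noncoding RNA genes were mostly on the lower side. Of 445 tested, 5 rose and 58 fell, and 68.3% had a negative difference (median -0.14 on the log2 scale). Of 7994 protein-coding genes, 518 rose and 350 fell, and 44.1% had a negative difference (median 0.04). These classes were compared after their values were seen, and no test of the contrast between them was made.

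In HPB-ALL, some genes differed widely among the transduced arrays. MPO, a myeloid granule enzyme, was at 4.83 without vector and at 7.03, 5.10 and 7.94 with scramble, shTOX-1 and shTOX-2. CD69, an early activation antigen, was at 3.43 and then 5.41, 4.63 and 5.85, while in CCRF-CEM it was at 8.47 and then 7.10, 8.11 and 7.85. Neither was called in either line.

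The TGATGNAA letters of an ATF4-type element, searched after the stress genes had been seen, were in no promoter window of the 3 genes TRIB3, ATF5 and DDIT3. They were in 4.46% of all genes in the table and 2.39% of tested genes with a window. A missing match says only that these letters are not in those windows.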
